A study of Homo sapiens with 21 samples.

Results

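Day 21 spheroids of the human liver cell line HepG2/C3A were set against the same cells grown as a 2D monolayer, over all genes of the raw count table. The members were the 3 libraries labelled as spheroids of Day 21 and the 3 labelled as monolayer control, 6 of the 21 libraries of the series. The other 15 libraries are spheroids of Days 3, 7, 10, 14 and 28, with 3 libraries a day. HepG2/C3A is a clonal line derived from a liver tumour, and the labels call it epithelial-like, wild type and from liver. Spheroids were made by forcing cells of a flat culture to aggregate in low-attachment plates and were then kept in a rotating reactor, whereas the monolayer stayed on plastic. All cells were maintained in the same serum-containing medium, per the labels' growth protocol. The design asks how the transcriptome changes while spheroids form and are maintained, and Day 21 is the fifth of 6 sampled spheroid days. Replicates are labelled biological with no word on separate cultures. The p-values therefore reflect how much these libraries vary, and that variation may be technical.

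Hepatocytes, the main cells of the liver, secrete most plasma proteins, make bile acids from cholesterol, clear drugs and ammonia, and export glucose. Dedifferentiation in flat culture is a known limit of liver lines: attached and spread cells run growth factor, stress fibre and adhesion programmes, while hepatocyte genes are expressed less than in liver. Aggregation restores cell contacts on all sides and removes the rigid surface, and oxygen and nutrients then have to diffuse into the spheroid.

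RNA was measured by TempO-Seq, in which pairs of detector oligos anneal side by side on a transcript, are ligated and are then counted by sequencing. The Day 21 libraries held 35074956, 33924901 and 30582470 counts, and the monolayer libraries 26709296, 43443262 and 33895279. Levels are given as CPM, counts scaled to a common library size that was adjusted by TMM, a method that centres most genes on no change. A level depends on its probes, so levels are compared between libraries and never between genes. Because RNA was taken from whole cultures, more RNA per cell and more cells of a kind cannot be told apart. The chi-square per degree of freedom was 14.2 for replicates 1 and 2, 28.2 for replicates 1 and 3 and 27.8 for replicates 2 and 3 at Day 21, against 12.1, 8.98 and 6.62 in the monolayer. The median absolute log2 difference of those pairs was 0.147, 0.188 and 0.18 at Day 21, against 0.155, 0.143 and 0.115 in the monolayer, so the pairs of Day 21 replicate 3 differed most by either measure. Each gene's spread was estimated from all groups together, so the standard errors (SE) below rest on all 21 libraries and not on Day 21 alone.

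Of 12345 genes tested, 4849 were higher and 4327 lower at Day 21 than in the monolayer by edgeR's quasi-likelihood test at a Benjamini-Hochberg adjusted p under 0.05. These calls are 39.3% and 35.1% of the genes tested, 74.3% together, and every count of list members below is to be read against those shares. The members are described through 43 textbook gene lists holding 983 genes, of which 860 had enough counts to be tested. Lists and members were chosen with earlier results of these data known, so the counts of list members are descriptions. Within each list the members with the largest changes are named, together with a few others that were picked after their values were seen. The largest changes over all genes were taken from called genes averaging 10 CPM or more whose groups did not overlap. For those genes the separation of the libraries and the p-values are therefore descriptions. At least 2-fold changes were seen in 2878 genes that rose (23.3%) and 1972 that fell (16%), and at least 8-fold changes in 579 that rose and 334 that fell. The libraries of the groups did not overlap in 9365 genes (75.9%). The median log2 fold change of all genes tested was 0.089. Scaling by library size alone moved that median to 0.24 and the calls to 5498 higher and 3715 lower. All p-values below are adjusted p-values from that edgeR test, and ± after a log2 fold change is its SE.

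**Figure D1:**
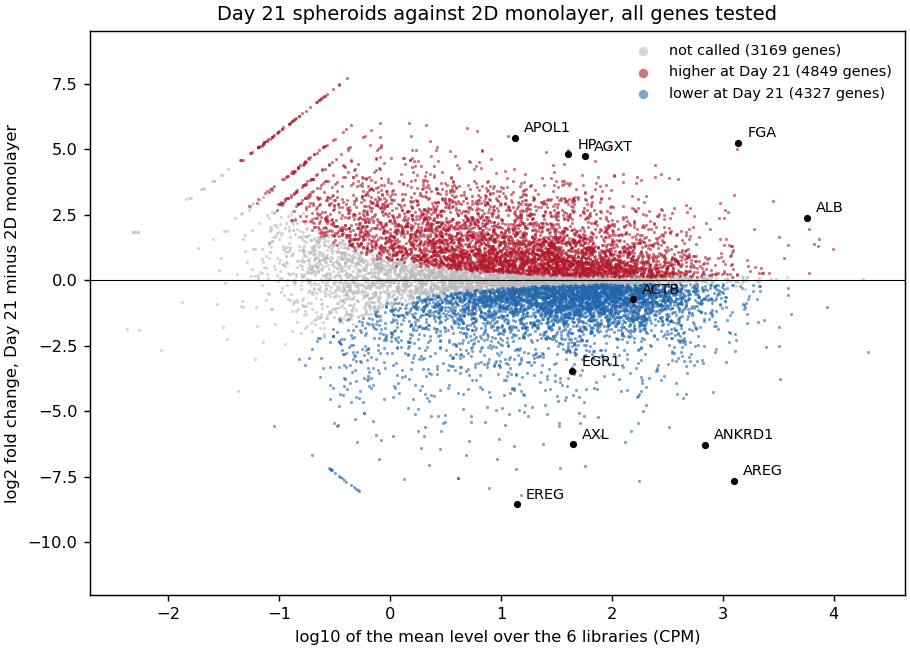
Each point is 1 of the genes tested, with the log10 of its mean level over the 6 libraries in CPM on the x axis and the log2 fold change, Day 21 minus 2D monolayer, on the y axis. Red points are the 4849 genes higher at Day 21, blue points the 4327 lower and grey points the 3169 not called; FGA lies at 5.25 and EREG at -8.55.

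Genes of secreted plasma proteins were among the largest rises. FGA, the fibrinogen alpha chain of blood clots, stood at 2451, 2993 and 2653 CPM in the Day 21 libraries, against 77.7, 67.3 and 67.7 CPM in the monolayer. FGG, the fibrinogen gamma chain, stood at 2512, 2821 and 2517 CPM at Day 21, against 85.1, 86.4 and 75.9 CPM in the monolayer. No Day 21 library came near the monolayer range in either gene, and the log2 fold changes were 5.25 ± 0.10 for FGA (edgeR adjusted p = 1.03e-28) and 4.99 ± 0.08 for FGG (edgeR adjusted p = 5.32e-31). FGB, the beta chain, changed by 3.90 ± 0.13. The 3 fibrinogen genes lie side by side on chromosome 4 in GRCh38 (GENCODE 29), with FGB at chr4:154562956-154571086 on the plus strand, FGA at chr4:154583126-154590766 and FGG at chr4:154604134-154612967, both on the minus strand. HP, haptoglobin, the plasma protein that binds free haemoglobin (chr16:72054592-72061055, plus strand), was at 81.5, 85.9 and 67.9 CPM at Day 21, against 3.47, 2.34 and 2.7 CPM in the monolayer. Its log2 fold change was 4.82 ± 0.12.

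Among called genes averaging 10 CPM or more over the 6 libraries and without overlap, the 10 largest rises held several other liver genes. AGXT, the peroxisomal enzyme that detoxifies glyoxylate, was at 116, 111 and 102 CPM at Day 21, against 4.87, 3.64 and 4.1 CPM in the monolayer. SLC30A10, a manganese exporter, was at 176, 193 and 184 CPM at Day 21, against 5.97, 4.76 and 5.69 CPM in the monolayer. Both were tight within each group, with log2 fold changes of 4.73 ± 0.13 and 5.09 ± 0.093. APOL1, an apolipoprotein of high-density lipoprotein that lyses trypanosomes, was less even: it stood at 36.8, 19.1 and 22.2 CPM at Day 21, against 0.339, 0.534 and 0.878 CPM in the monolayer, a change of 5.44 ± 0.70 with replicate 1 the highest spheroid library. ADH6, an alcohol dehydrogenase, rose by 4.57 ± 0.10, SLC22A9, an organic anion transporter of the liver, by 4.90 ± 0.15, HS6ST2, a heparan sulfate sulfotransferase, by 4.97 ± 0.42, and LACTBL1, a beta-lactamase-like protein, by 5.50 ± 0.21.

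Plasma proteins rose almost without exception. Of 26 tested transport proteins and apolipoproteins, 24 were higher, 0 lower and 2 not called, with a median log2 fold change of 2.24. These genes took 9.61%, 9.52% and 8.82% of all counts in the Day 21 libraries, against 3.81%, 3.58% and 3.54% in the monolayer. ALB, albumin, was at 10264, 11304 and 7673 CPM at Day 21, against 1952, 1794 and 1822 CPM in the monolayer, and its log2 fold change was 2.39 ± 0.15. Replicate 3 was the lowest of the Day 21 libraries for ALB, and it was still far above every monolayer library. AFP, the fetal counterpart of albumin, was at 12373, 10829 and 10132 CPM at Day 21, against 4064, 3548 and 3590 CPM in the monolayer (1.57 ± 0.15). HPX, hemopexin, which binds free haem, had few counts and changed by 4.56 ± 0.30, or 5.16 without monolayer replicate 3. APOC3, which slows the breakdown of triglyceride-rich lipoproteins, changed by 3.96 ± 0.11. APOA2 (0.045) and ITIH4 (0.28) were the members not called.

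All 25 tested genes of coagulation and complement were higher at Day 21, with a median of 2.62 and values from 0.49 for complement C5 to 5.25 for FGA among genes counted in both groups. Their share of all counts was 1.57%, 1.63% and 1.59% at Day 21, against 0.244%, 0.239% and 0.243% in the monolayer. PLG, plasminogen, the precursor of the clot-dissolving protease plasmin, had 20, 16 and 12 counts at Day 21 and 0 in all 3 monolayer libraries, so it was at least 15.1-fold higher, taking 3 counts over the 3 monolayer libraries as the floor. Acute phase and iron genes split, with 7 of 14 higher, 4 lower and 3 not called. HFE and TFR2, sensors of circulating iron, rose by 4.12 ± 0.47 and 3.78 ± 0.10, while the ferritin chains FTL and FTH1, which store iron, fell by 1.69 and 1.28 on the log2 scale. LCN2, lipocalin 2, an acute phase protein that captures bacterial iron carriers, was at 52.3, 51.8 and 43.2 CPM at Day 21, against 296, 296 and 325 CPM in the monolayer.

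**Figure D2:**
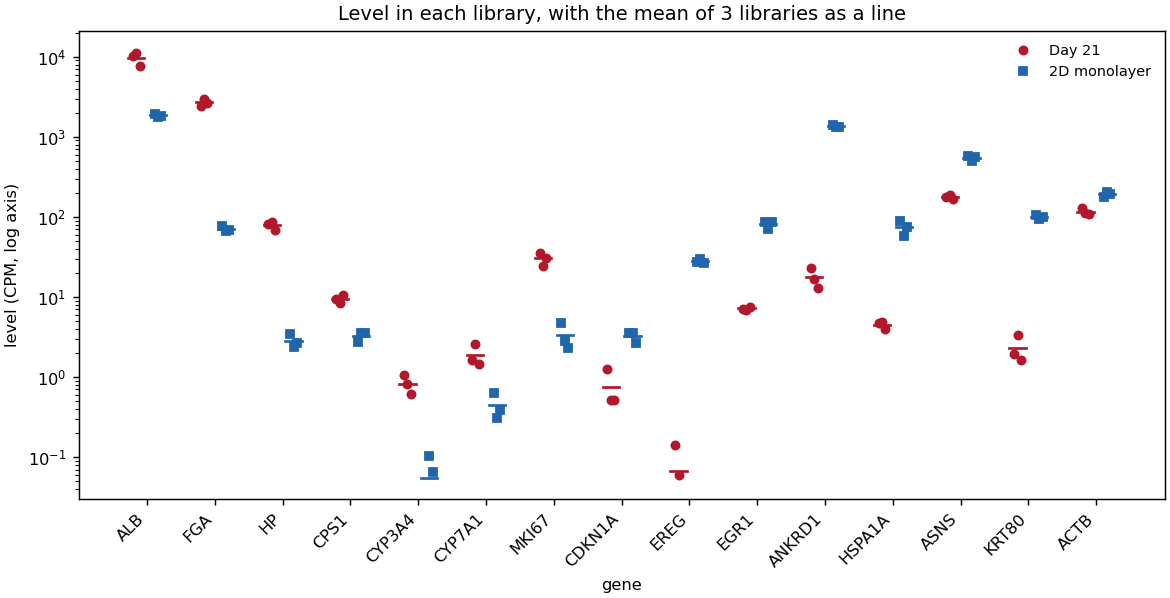
Level in CPM on a log axis for 15 genes in each Day 21 library (red circles, left) and each 2D monolayer library (blue squares, right), with the mean of 3 libraries as a line. The groups do not overlap in any of these genes; a library at 0 cannot be drawn on a log axis, which leaves out Day 21 replicate 3 for EREG and monolayer replicate 1 for CYP3A4.

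Transcription factors of hepatocytes rose in most cases, with 15 of 22 higher and 4 lower. HNF4A, the nuclear receptor that maintains hepatocyte identity, was at 24.2, 21.9 and 20.8 CPM at Day 21, against 6.95, 6.59 and 7.91 CPM in the monolayer, a change of 1.64 ± 0.11 with no overlap. NR1I3, the xenobiotic receptor CAR, rose by 3.04 ± 0.29, NR5A2, a receptor that drives bile acid genes, by 3.51 ± 0.41, CEBPA by 2.59 ± 0.082 and NR1H4, the bile acid receptor FXR, by 2.34 ± 0.10. The pioneer factors FOXA2 and FOXA3 fell by 1.45 and 1.22 on the log2 scale, and CEBPB, the CCAAT-binding factor of the acute phase, and AHR, the dioxin receptor, by 1.21 and 1.02.

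Drug metabolism genes were higher or not called. In phase I, which oxidises and hydrolyses drugs, 13 of 18 tested were higher (10 of the 28 listed had too few counts), 0 lower and 5 not called, with a median of 2.43. In phase II conjugation the counts were 14 higher, 0 lower and 5 not called of 19, with a median of 1.40. CYP3A4, the main drug-oxidising cytochrome of adult liver, stayed scarce at 1.06, 0.81 and 0.607 CPM at Day 21, against 0, 0.102 and 0.0651 CPM in the monolayer. Its change of 3.64 ± 0.64 rests on 6 monolayer counts and was 4.39 without monolayer replicate 2. CYP2B6 and CYP1A1, which CAR and AHR induce, were not called (-0.72 and -0.041). ADH4, an alcohol dehydrogenase that also oxidises retinol, rose by 4.95 ± 0.21, and CYP4F2, which oxidises vitamin K and fatty acids, changed by 4.05 ± 0.38, or 4.75 without monolayer replicate 3. Among conjugating enzymes, SULT1E1, the estrogen sulfotransferase, changed by 4.96 ± 0.42 and GSTA1, a glutathione transferase, by 4.72 ± 0.46, with 5.74 and 5.89 without monolayer replicate 2. GSTA1 was also uneven at Day 21, at 7, 4.14 and 2.36 CPM.

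Of 16 tested hepatic transporters, 11 were higher, 4 lower and 1 not called. SLC22A9 and SLC22A7, uptake carriers of organic anions, rose by 4.90 ± 0.15 and 3.96 ± 0.40. ABCG5 and ABCG8, the paired sterol exporters, rose by 2.33 ± 0.13 and 3.60 ± 0.22. The members that fell were ABC transporters: ABCB1, the multidrug pump, was at 254, 248 and 279 CPM at Day 21, against 819, 846 and 839.9 CPM in the monolayer, and ABCC3, ABCB4 and ABCC2 fell by 1.05, 1.00 and 0.42 on the log2 scale.

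Bile acid synthesis rose in 10 of 12 tested genes and fell in the other 2. CYP7A1, the rate-limiting enzyme, was at 1.64, 2.58 and 1.47 CPM at Day 21, against 0.635, 0.305 and 0.39 CPM in the monolayer. That is a change of 2.13 ± 0.45 at low counts, with the lowest spheroid library above the highest monolayer library. KLB, the co-receptor of the hormone FGF19 that restrains CYP7A1, was better counted, at 309.8, 291 and 317 CPM at Day 21, against 23, 23.7 and 24.2 CPM in the monolayer (3.69 ± 0.072). CYP8B1, which sets the share of cholic acid, changed by 4.65 ± 0.50, or 5.63 without monolayer replicate 3. AKR1C4, a hydroxysteroid dehydrogenase whose near-identical family members can share counts, fell by 2.36 on the log2 scale, and BAAT, which joins bile acids to amino acids, by 0.55.

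Lipid genes rose in most pathways. In cholesterol synthesis and uptake 18 of 23 were higher, 2 lower and 3 not called, with a median of 0.87. FDPS, which makes the farnesyl building block of sterols, was at 11.8, 6.75 and 9.96 CPM at Day 21, against 1.74, 2.06 and 2.67 CPM in the monolayer, with no overlap and a change of 2.13 ± 0.17. TM7SF2, a sterol reductase, rose by 2.39 ± 0.13, while SREBF2, the factor that induces the pathway when sterols are low, was lower at -0.49 ± 0.088. The sterol element TCACNCCAC was found on either strand in 1 of 18 promoter windows of the list, that of SREBF2, and in 1.15% of all 27305 windows, which run from 250 bases before to 50 after each RefSeq start. Of 23 genes that build fatty acids and triglycerides 16 were higher, among them ACACB, which makes malonyl-CoA at mitochondria (3.39 ± 0.13), and PNPLA3, a lipid droplet hydrolase, at 0.746, 0.54 and 0.192 CPM at Day 21, against 0, 0.0254 and 0 CPM in the monolayer. The list had 4 lower, among them the lipid droplet coat PLIN2 (-2.33 ± 0.073) and LPIN2, a phosphatidate phosphatase (-2.36 ± 0.087). Fatty acid oxidation and ketogenesis had 20 of 25 higher and 3 lower. FABP1, the liver fatty acid binding protein, was at 505, 481 and 429 CPM at Day 21, against 25.5, 19.7 and 21.7 CPM in the monolayer. ACSL1, which activates long-chain fatty acids, fell by 1.78 on the log2 scale.

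Glucose and nitrogen metabolism showed the same direction in most members. Gluconeogenesis and glycogen genes were higher in 11 of 15 and lower in 3. G6PC, the glucose 6-phosphatase that releases free glucose, was at 15.4, 16.5 and 15.3 CPM at Day 21, against 0.466, 0.56 and 0.846 CPM in the monolayer (4.64 ± 0.31). KHK, which starts fructose breakdown, rose by 4.44 ± 0.13 and PCK1, which commits oxaloacetate to glucose, by 3.35 ± 0.29. GBE1, the glycogen branching enzyme, was at 77.5, 70.4 and 76.9 CPM at Day 21, against 844, 885 and 877 CPM in the monolayer. Among genes of urea synthesis and amino acid breakdown 20 of 24 were higher and 2 lower, with SLC25A13, the aspartate carrier of mitochondria, at -0.35 ± 0.065. CPS1, which captures ammonia for the cycle, was at 9.36, 8.37 and 10.5 CPM at Day 21, against 2.71, 3.56 and 3.55 CPM in the monolayer (1.51 ± 0.16). ARG1, the arginase that ends the cycle, changed by 3.95 ± 0.60, or 3.27 without Day 21 replicate 1. One-carbon genes were higher in 10 of 12, with GNMT, which disposes of excess methyl groups, up by 4.26 ± 0.22. BHMT, which remethylates homocysteine, had 35, 5 and 21 counts at Day 21 and 0 in the monolayer, at least 19.1-fold higher.

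**Figure D3:**
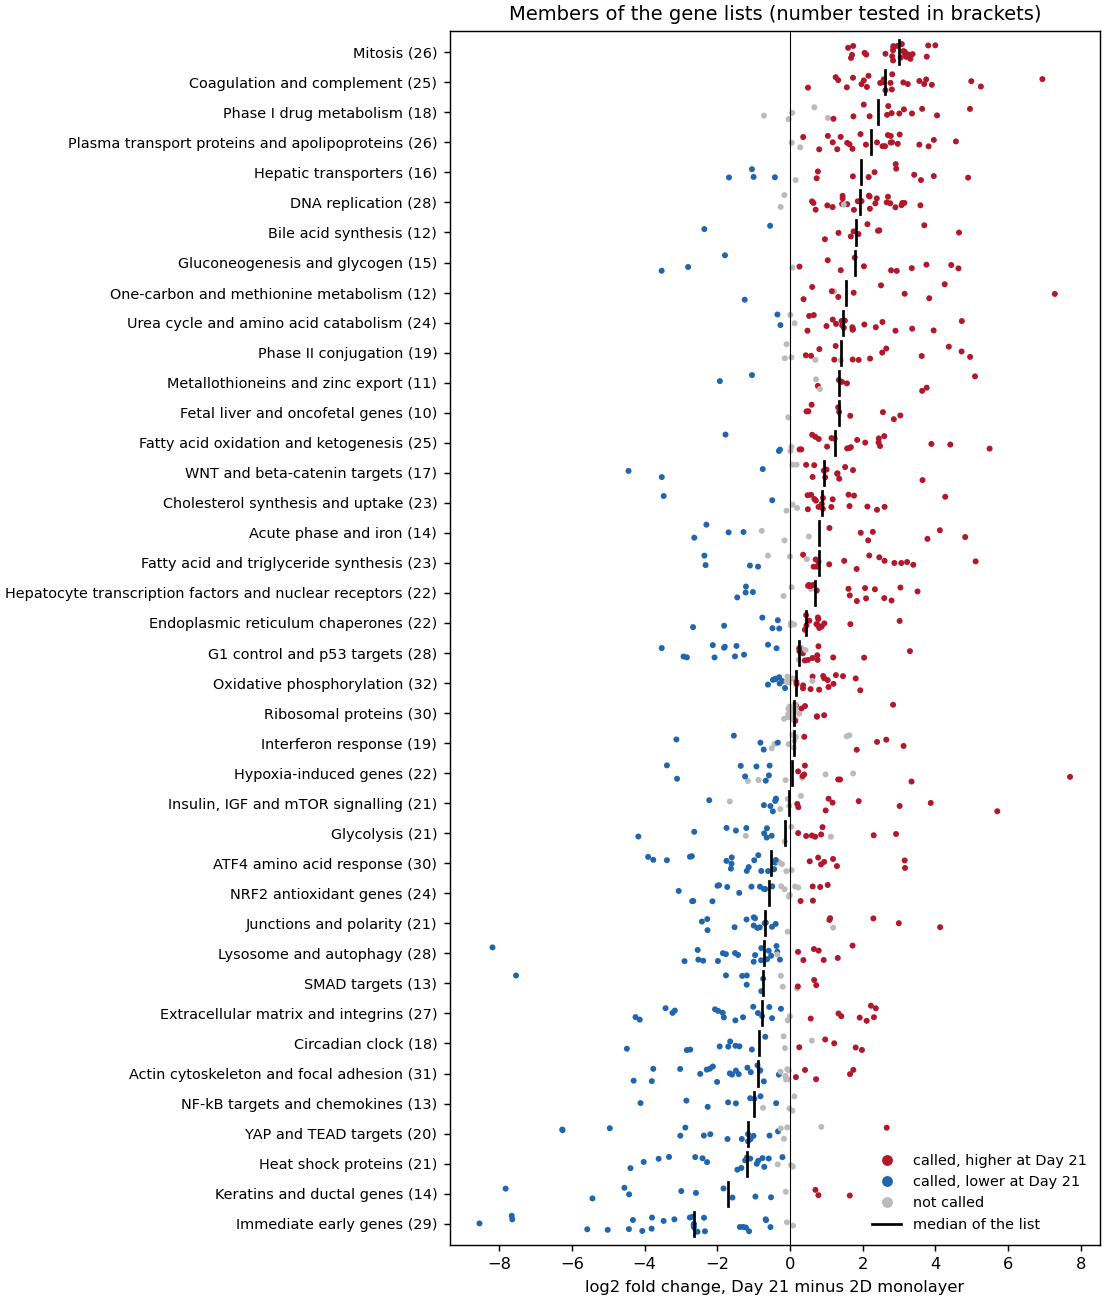
Log2 fold change, Day 21 minus 2D monolayer, of every tested member of 40 textbook gene lists, sorted by list median (black bar). Red points are members called higher at Day 21, blue points members called lower and grey points members not called; mitosis has the highest median at 3.00 and the immediate early genes the lowest at -2.65.

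Growth factor genes were among the largest falls. EREG and AREG, ligands of the epidermal growth factor receptor, lie next to each other on chromosome 4 (chr4:74365143-74388751 and chr4:74445134-74455009, both on the plus strand). AREG was at 20.6, 8.97 and 7.73 CPM in the Day 21 libraries, against 2302, 2619 and 2600 CPM in the monolayer. EREG was at 0.143, 0.06 and 0 CPM at Day 21, against 27.1, 29.7 and 26.5 CPM in the monolayer. Every Day 21 library was far below every monolayer library in both genes, and EREG was close to 0, with log2 fold changes of -7.65 ± 0.60 for AREG (edgeR adjusted p = 1.1e-08) and -8.55 ± 0.50 for EREG (edgeR adjusted p = 6.1e-14). EREG rested on few Day 21 counts, reached the mean of 10 CPM only through the monolayer, and was at -9.61 without Day 21 replicate 1. HBEGF, another ligand of that receptor, changed by -5.58 ± 0.12. DUSP5, a phosphatase that growth signals induce and that switches off nuclear ERK, was at 2.09, 1.68 and 1.37 CPM at Day 21, against 410.4, 333 and 306 CPM in the monolayer. Other large falls were those of ATP6V0D2, a subunit of the proton pump of lysosomes (-8.19 ± 0.39), GPRC5A, an orphan receptor that retinoic acid induces (-7.18 ± 0.40), and RGCC, a regulator of the cell cycle (-7.09 ± 0.40). AHNAK2, a giant scaffold protein, and AQP3, a channel for water and glycerol, changed by -7.21 ± 0.37 and -6.33 ± 0.38 on few Day 21 counts, or by -7.80 without Day 21 replicate 2 and -7.64 without Day 21 replicate 1.

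Immediate early genes are the transcription factors, ligands and phosphatases that respond within minutes to growth factors. Of 29 tested, 27 were lower at Day 21, 0 higher and 2 not called, with a median of -2.65. EGR1, a zinc finger factor that serum switches on, was at 7.09, 6.96 and 7.57 CPM at Day 21, against 86.6, 69.6 and 85.3 CPM in the monolayer (-3.48 ± 0.12). JUN and FOSL1, subunits of the AP-1 factor, changed by -3.81 ± 0.21 and -4.33 ± 0.10, and KLF4 by -5.02 ± 0.25. IER2 (-0.089) and SPRY2 (0.081) were not called. Serum response factor acts on such genes through the CArG box, and the EGR1 promoter is shown because it holds more than 1 such box. The stretch is from RefSeq (GRCh38.p14, chr5:138465344-138465435, plus strand, upstream of the transcription start), with the CArG boxes in capitals.
EGR1: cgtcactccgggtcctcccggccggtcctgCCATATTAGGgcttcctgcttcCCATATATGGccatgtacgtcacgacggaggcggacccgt
Among 23 immediate early genes with a RefSeq promoter window of 250 bases upstream and 50 downstream, a CArG box was found in 2, EGR1 and SRF, and in 1.29% of all 27305 windows. A match is a description of the sequence and not of binding.

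The targets of YAP and TEAD, which respond to cell spreading and tension, fell in 15 of 20, with 1 higher and 4 not called. ANKRD1, a muscle ankyrin repeat protein used as a readout of YAP (chr10:90912096-90921276, minus strand), was at 23, 16.8 and 13 CPM at Day 21, against 1417, 1327 and 1341 CPM in the monolayer. AXL, a receptor tyrosine kinase, was at 1.29, 0.75 and 1.41 CPM at Day 21, against 91.2, 90.4 and 83.2 CPM in the monolayer. The log2 fold changes were -6.27 ± 0.20 and -6.26 ± 0.31, and no library of one group reached the range of the other. CCN1, a matrix protein, changed by -4.96 ± 0.43, its relative CCN2 by -1.16 ± 0.076, YAP1 itself by -1.16 ± 0.079, and NT5E, an ecto-nucleotidase, rose by 2.66 ± 0.11.

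Actin, adhesion and keratin genes were lower in most cases. Of 31 genes of the actin cytoskeleton and focal adhesions 19 were lower and 5 higher. ACTB, beta-actin, was at 128, 113 and 109 CPM at Day 21, against 177, 206 and 194 CPM in the monolayer (-0.72 ± 0.077). TAGLN and TAGLN2, which bind actin, changed by -3.77 ± 0.19 and -3.81 ± 0.26, and VCL, vinculin of focal adhesions, by -2.01 ± 0.069. CNN1, calponin, changed by -4.31 ± 0.69, or -3.68 without Day 21 replicate 1 and -5.55 without replicate 3. MYH10 and CAPG, a non-muscle myosin and a filament-capping protein, rose by 1.65 ± 0.075 and 1.74 ± 0.14. Extracellular matrix and integrin genes had 17 of 27 lower and 8 higher. The integrin subunits ITGA3 and ITGA2 and the protease inhibitors TIMP2 and TIMP1 changed by -4.25 ± 0.35, -3.17 ± 0.22, -4.14 ± 0.31 and -3.24 ± 0.083. Basement membrane genes were among the risers: NID1 by 2.36 ± 0.11, LAMB2 by 2.11 ± 0.075, LAMA5 by 1.92 ± 0.25 and COL18A1 by 1.41 ± 0.091.

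Of 21 junction and polarity genes tested, 14 were lower and 5 higher. The tight junction protein OCLN was at 138, 142 and 149 CPM at Day 21, against 660.3, 718 and 705 CPM in the monolayer, and PARD6B, a polarity protein, changed by -2.43 ± 0.13. The higher ones were the cadherins CDH1 (1.10 ± 0.14) and CDH2 (1.08 ± 0.081), GJB1, the gap junction protein of hepatocytes (2.99 ± 0.07), CGN, cingulin, whose libraries overlapped between groups (2.29 ± 0.80), and CLDN2, a pore-forming claudin (4.13 ± 0.24). Among keratins and ductal genes 10 of 14 were lower and 3 higher. KRT80 was at 1.92, 3.36 and 1.63 CPM at Day 21, against 106, 94.3 and 101 CPM in the monolayer, KRT19, a keratin of bile ducts, changed by -4.43 ± 0.21 and SOX4 by -4.56 ± 0.17, while ONECUT2, a factor of liver and bile duct development, rose by 1.64 ± 0.16. KRT81, a hair keratin, had 0 counts at Day 21 and 13, 34 and 38 in the monolayer, at least 30.1-fold lower.

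Heat shock proteins, the chaperones of misfolded cytosolic protein, fell in 18 of 21, with 0 higher and 3 not called, and a median of -1.19. With scaling by library size alone 2 were higher and 17 lower. HSPA1A, the inducible HSP70, was at 4.71, 4.89 and 3.99 CPM at Day 21, against 89.3, 57.5 and 75.8 CPM in the monolayer (-4.03 ± 0.26). Its near-identical copy HSPA1B changed by -3.33 ± 0.09, and the pair may share counts. HSPB8, a small chaperone, changed by -4.39 ± 0.24 and BAG3, its partner, by -2.28 ± 0.092. Heat shock factor binds GAANNTTC, shown in capitals in the HSPA1A promoter from RefSeq (GRCh38.p14, chr6:31815407-31815474, plus strand, upstream of the start).
HSPA1A: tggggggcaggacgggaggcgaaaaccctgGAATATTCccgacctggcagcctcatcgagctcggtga
This motif was in the windows of 7 of 20 heat shock genes, on either strand, and in 6.87% of all windows.

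Antioxidant genes driven by NRF2 were lower in 13 of 24 and higher in 5. SRXN1, which repairs oxidised peroxiredoxin, was at 132, 109.7 and 132 CPM at Day 21, against 957, 1116 and 1052 CPM in the monolayer, and TXNRD1, thioredoxin reductase, changed by -2.66 ± 0.10. AKR1C1, a ketosteroid reductase with near-identical relatives, changed by -2.70 ± 0.095, while HMOX1, haem oxygenase, and NQO1, a quinone reductase, rose by 1.04 ± 0.11 and 0.83 ± 0.071. NF-kB targets and chemokines had 9 of 13 lower and 0 higher, with CXCL8, the neutrophil attractant, changed by -4.12 ± 0.28 and BIRC3, an inhibitor of apoptosis, by -2.85 ± 0.34. Lysosome and autophagy genes were lower in 20 of 28 and higher in 7. The autophagy adaptor SQSTM1 changed by -2.52 ± 0.072 and MAP1LC3B, the membrane mark of autophagosomes, by -2.54 ± 0.077, while GAA and CTSH, enzymes inside lysosomes, rose by 1.72 ± 0.14 and 1.31 ± 0.087. TFEB, the factor that induces lysosomal genes, changed by -2.90 ± 0.91 on few counts, or -4.15 without Day 21 replicate 3.

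Genes of the ATF4 response, which cells induce when amino acids are short or translation is stalled, fell in 18 of 30 and rose in 8. GDF15, a secreted stress hormone, was at 441, 479 and 419 CPM at Day 21, against 6132, 6174 and 5904 CPM in the monolayer (-3.77 ± 0.082). PPP1R15A, the phosphatase subunit that ends the response, changed by -3.91 ± 0.081 and TRIB3 by -2.76 ± 0.10. ASNS, asparagine synthetase, was at 177, 188 and 167 CPM at Day 21, against 569.9, 493 and 562 CPM in the monolayer (-1.61 ± 0.065). The serine synthesis enzymes of the same list went up: PHGDH by 0.85 ± 0.10, PSAT1 by 0.94 ± 0.16 and PSPH by 3.16 ± 0.11. ATF4 itself was not called (-0.10). Its element TGATGNAAT was found on either strand in 1 of 22 promoter windows of the list, that of FGF21, and in 1.02% of all windows.

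Cell cycle genes were higher in the spheroids than in the monolayer. All 26 mitosis genes were higher, with a median of 3.00 and a lowest value of 1.60 for PRC1, which bundles the spindle midzone. PLK1, the mitotic kinase, was at 6.54, 3.84 and 3.58 CPM at Day 21, against 0.339, 0.305 and 0.228 CPM in the monolayer. Of 28 DNA replication genes 25 were higher, 0 lower and 3 not called, with a median of 1.92. MKI67, the proliferation marker Ki-67, was at 35.9, 24.3 and 30.8 CPM at Day 21, against 4.79, 2.82 and 2.31 CPM in the monolayer (3.24 ± 0.21), and the groups did not overlap. TOP2A, the topoisomerase that untangles chromosomes, rose by 3.76 ± 0.22 and KIF20A, a motor of cell division, by 3.80 ± 0.25. GINS2, part of the replicative helicase, rose by 3.15 ± 0.23. PCNA, the sliding clamp, rose by 0.60 ± 0.15, and FEN1 (-0.16) and CCNE2 (-0.26) were not called. Among genes of G1 control and p53, 12 of 28 were higher and 12 lower. CDKN1A, the inhibitor p21, was at 1.26, 0.51 and 0.511 CPM at Day 21, against 3.56, 3.56 and 2.64 CPM in the monolayer (-2.08 ± 0.36), and the kinases PLK2 and PLK3 changed by -2.84 ± 0.12 and -3.53 ± 0.43. CDKN2C, the inhibitor p18, rose by 3.30 ± 0.51 and CCND2, cyclin D2, by 2.04 ± 0.32.

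Ribosomal proteins were higher in 8 of 30, lower in 0 and not called in 22, with a median of 0.11 beside 0.089 for all genes. The count of 8 was 22 with scaling by library size alone and 13 without Day 21 replicate 3. RPL7 stood apart from the rest of the list at 2.83 ± 0.18, followed by RPL13 at 0.94 ± 0.10, and ribosomal protein probes can share counts with processed pseudogenes. Oxidative phosphorylation genes were higher in 16 of 32 and lower in 8, or lower in 5 with scaling by library size alone. The complex I subunits NDUFB5 and NDUFB10 changed by 1.93 ± 0.57 and 1.81 ± 0.12 and NDUFA9 by -0.61 ± 0.14. WNT and beta-catenin targets were higher in 12 of 17 and lower in 3. LGR5, a receptor of WNT-responsive cells, was at 145, 167 and 147 CPM at Day 21, against 47.2, 45 and 46.1 CPM in the monolayer, and the ammonia carrier RHBG and glutamine synthetase GLUL, which mark the zone of the liver lobule around the central vein, rose by 3.64 ± 0.30 and 1.30 ± 0.062. DKK1, a secreted WNT inhibitor, changed by -4.45 ± 0.31. Fetal liver genes were higher in 9 of 10, with TSPAN8, a tetraspanin, at 3.03 ± 0.27 and HMGA2, a chromatin protein of embryonic and tumour cells, at 813, 831 and 808 CPM at Day 21, against 121, 109 and 108 CPM in the monolayer.

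Insulin and IGF genes were higher in 9 of 21 and lower in 7, shares close to those of all genes tested. DEPTOR, an inhibitor of the kinase mTOR, was at 9.67, 11.8 and 14.5 CPM at Day 21, against 0.466, 0.178 and 0.0976 CPM in the monolayer, a change of 5.70 ± 0.30 that was 6.33 without monolayer replicate 1. IGFALS, which holds insulin-like growth factors in plasma, changed by 3.87 ± 0.62, or 4.81 without monolayer replicate 2. PIK3R1, a regulatory subunit of PI3-kinase, rose by 3.02 ± 0.17 and TXNIP, a glucose-induced brake on glucose uptake, changed by -2.23 ± 0.21. SMAD targets were lower in 7 of 13 and higher in 3, with the cytokine TGFB1 at -1.76 ± 0.16 and INHBE, a liver activin subunit, at 0.72 ± 0.13. BMP6, the signal that sets hepcidin, was counted in 1 Day 21 library only, at 0.115, 0 and 0 CPM, against 7.46, 8.22 and 8.88 CPM in the monolayer. Interferon genes were higher in 5 of 19 and lower in 5, among them PSMB9, an immunoproteasome subunit (3.12 ± 0.25), IFI6 (2.65 ± 0.50) and IFIT1, which binds foreign RNA (-3.13 ± 0.92). Clock genes were lower in 10 of 18 and higher in 5, with BHLHE40 and NR1D1, repressors of the clock, changed by -2.84 ± 0.19 and -2.75 ± 0.24 and DBP, a clock output factor, by 1.98 ± 0.24. BHLHE41, a relative of BHLHE40 with 4 Day 21 counts in all, changed by -4.49 ± 1.12, or -5.72 without Day 21 replicate 3. Metallothioneins and zinc exporters were higher in 7 of 11 and lower in 2, though these short near-identical genes can share counts. MT1F changed by 3.76 ± 0.39 on few monolayer counts, at 0.0847, 0.178 and 0.0976 CPM there. MT2A was better counted and lower, at 23.4, 12 and 9.8 CPM at Day 21, against 28.5, 35.6 and 29.5 CPM in the monolayer. MTF1, the metal sensor that drives metallothioneins, changed by -1.93 ± 0.27. The metal response element TGCNCNC was found on either strand in 6 of 7 windows of the list and in 55.2% of all windows.

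Hypoxia and glycolysis genes split between directions. Of 22 hypoxia-induced genes 8 were higher and 8 lower, and of 21 glycolysis genes 8 were higher and 9 lower, again close to the shares of all genes tested. VEGFA, the vessel growth factor, was at 200.2, 208 and 220.0 CPM at Day 21, against 521, 486 and 473 CPM in the monolayer (-1.24 ± 0.062). ADM, adrenomedullin, changed by -3.39 ± 0.18 and the glycolytic enzymes PFKP and ENO2 by -4.18 ± 0.18 and -2.64 ± 0.10, while LOX, which crosslinks collagen, rose by 3.34 ± 0.14. EPO, the hormone of red cell production, had 27, 25 and 29 counts at Day 21 and 0 in the monolayer, at least 25.4-fold higher. PKLR, the liver pyruvate kinase, changed by 2.92 ± 0.68, or 2.23 without monolayer replicate 2 and 2.19 without Day 21 replicate 3. CA9, a carbonic anhydrase, had few counts and was not called (1.74).

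EPO and PLG were among 9 genes at 0 in every monolayer library with at least 10 counts in each Day 21 library. The others were ACP4, FOXD4, IQCN, SFRP4, SSTR1, TMEM221 and TNFRSF10C. In the other direction 17 genes were at 0 in every Day 21 library with at least 10 counts in each monolayer library. WNT7B, a WNT ligand, had 0 counts at Day 21 and 36, 35 and 23 in the monolayer, at least 33.3-fold lower, and VSIR, an immune checkpoint ligand, had 0 at Day 21 and 14, 51 and 16 in the monolayer, at least 28.7-fold lower. These genes were picked out by their counts, so this is a description.

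Markers of hepatocytes and of other liver cells were summed per library. A set of 7 hepatocyte markers that includes ALB, APOA1, TTR, SERPINA1, TF and HNF4A summed to 24000, 25500 and 19900 CPM at Day 21, against 4790, 4430 and 4400 CPM in the monolayer, so these markers were present in both groups and higher at Day 21. Ductal markers (KRT7, KRT19, SOX9 and CFTR) summed to 571 to 591 CPM at Day 21, against 409 to 423 CPM in the monolayer, with CFTR at 0. KRT19 went the other way, at 4.22, 2.25 and 2.01 CPM at Day 21, against 54.1, 64.7 and 65.4 CPM in the monolayer. Of the 4 ductal markers 2 had enough counts to be tested, and KRT19 is among them. The higher sum therefore lies mainly in whichever of KRT7 and SOX9 was tested, and is not a rise of the whole set. Of 12 stellate and fibroblast markers 6 were at 0 in all 6 libraries (COL1A2, DES, LRAT, DCN, POSTN and THY1), and the list summed to 14.1 to 19 CPM at Day 21, against 8.35 to 13.4 CPM in the monolayer. ACTA2, smooth muscle actin, rose by 0.55 ± 0.15 and PDGFRB, a receptor of platelet-derived growth factor, had 35 counts at Day 21, against 8 in the monolayer, with a log2 fold change of 2.02 ± 0.63, or 4.0 without monolayer replicate 2. Of 12 endothelial markers KDR, STAB2, CLEC4M and EMCN were at 0, and the sums were 2.17 to 2.64 CPM at Day 21, against 1.66 to 2.85 CPM in the monolayer. STAB1, a scavenger receptor, had 44 counts at Day 21, against 7 in the monolayer, and its call was lost without any of 4 libraries, with edgeR adjusted p of 0.0503 to 0.0746 and log2 fold changes of 2.13 to 2.41, against 2.59 ± 0.98 with all libraries and 4.37 without monolayer replicate 2. VWF, a clotting factor carrier, had 31 counts at Day 21, against 2 in the monolayer. Its log2 fold change was 3.63, or 2.99 without monolayer replicate 2 and 6.34 without monolayer replicate 3. The other 2 endothelial markers tested were not called, LYVE1, a hyaluronan receptor, with 81 counts at Day 21, against 134 in the monolayer, and TIE1, a receptor kinase, with 30 counts at Day 21, against 60 in the monolayer. PECAM1 and CDH5 had too few counts to be tested, with 29 and 17 counts at Day 21, against 1 and 0 in the monolayer. Of 12 macrophage and leukocyte markers 7 were at 0, among them PTPRC, CD163 and CSF1R. That list summed to 98.4 to 121 CPM at Day 21, against 64.9 to 69.5 CPM in the monolayer. Of its 4 members tested 3 were higher and 1 lower. LYZ, lysozyme, held most of the rise in the sum, with 7390 counts at Day 21, against 1861 in the monolayer. The lower member was CD68, a lysosomal glycoprotein that is not limited to macrophages, at 30.9, 25.3 and 25.2 CPM at Day 21, against 43.8, 49.8 and 48.9 CPM in the monolayer (-0.81 ± 0.10). AIF1, an actin-binding protein, rose by 4.12 ± 0.39, and CD14, a co-receptor of endotoxin that hepatocytes also make, was at 2.96, 2.85 and 2.87 CPM at Day 21, against 0.127, 0.102 and 0.13 CPM in the monolayer. The part of other cell types in the results was not tested.

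To place Day 21 in time, it was set against the mean of its neighbours, Days 14 and 28, in the same fit. In that contrast 1883 genes were higher (15.3%) and 1396 lower (11.3%), of which 116 (0.94%) and 85 (0.689%) changed by at least 2-fold. Scaling by library size alone turned this split to 1428 higher and 1778 lower. Against Day 14 alone 1718 genes were higher (13.9%) and 1571 lower (12.7%), and against Day 28 alone 1724 were higher (14%) and 1240 lower (10%). These contrasts share the Day 21 libraries.

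The largest rises over the neighbours were those of ODAM, BAAT, TMEM50B, SLCO4C1 and CAPN3. TMEM50B, a small membrane protein, was at 6.47, 8.88 and 6.77 CPM at Day 14, 21.6, 24.4 and 21.4 CPM at Day 21 and 13.1, 8.01 and 11.5 CPM at Day 28. The Day 21 libraries were above all the others, by 1.61 ± 0.16 on the log2 scale over Day 14 and 1.06 ± 0.16 over Day 28. BAAT, the bile acid conjugating enzyme, averaged 34.8 ± 3.14 CPM in the monolayer, 6.28 ± 0.472 at Day 14, 23.8 ± 4.31 at Day 21 and 13.3 ± 2.02 at Day 28 (SD, n = 3). ODAM, an odontogenic protein, SLCO4C1, an organic anion carrier, and CAPN3, a calcium-dependent protease, were higher than the mean of the neighbours by 1.74 ± 0.11, 1.29 ± 0.12 and 1.18 ± 0.11. None of these was highest at Day 21. ODAM averaged 48.6 CPM at Day 7, against 29.2 at Day 21, SLCO4C1 135 against 70.4 and CAPN3 60.0 against 19.5. ODAM was set apart more from Day 28 (2.50 ± 0.15) than from Day 14 (0.98 ± 0.13), a gap between the days that was not tested.

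Among the 5 largest falls below the neighbours were those of IGFBP1, GPCPD1, HAVCR1 and PLAC8. IGFBP1, an insulin-repressed binding protein of insulin-like growth factors, averaged 2089 ± 144 CPM in the monolayer, 3573 ± 459 at Day 14, 1268 ± 100.0 at Day 21 and 4900 ± 183 at Day 28. Every Day 21 library was below every library of both neighbours, by -1.72 ± 0.072 against their mean. GPCPD1, a glycerophosphocholine phosphodiesterase, PLAC8, and HAVCR1, a marker of injured kidney tubules, differed from the mean of the neighbours by -1.65 ± 0.11, -1.44 ± 0.094 and -1.44 ± 0.093.

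**Figure D4:**
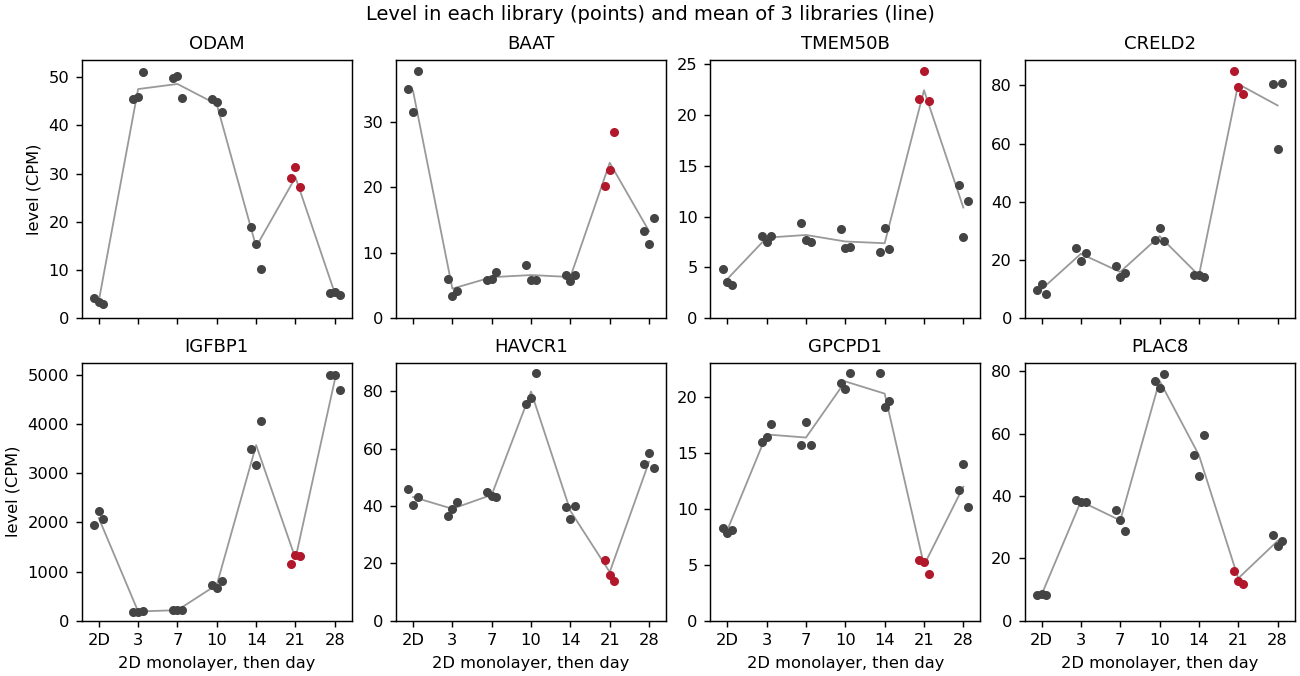
Level in CPM of 8 genes in each library (points) with the mean of 3 libraries (grey line), in the monolayer and on each sampled spheroid day, equally spaced along the x axis and with Day 21 in red. TMEM50B is highest at Day 21, IGFBP1, HAVCR1 and GPCPD1 are lower there than at Days 14 and 28, and CRELD2 rises between Days 14 and 21 and stays up at Day 28.

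The immediate early list had 14 of 29 members below the mean of Days 14 and 28 and 0 above, glycolysis 10 of 21 below and 0 above, and hypoxia-induced genes 10 of 22 below and 0 above. Against each neighbour alone the counts were 12 lower and 1 higher against Day 14 and 10 lower and 0 higher against Day 28 for immediate early genes. For glycolysis they were 13 lower and 0 higher against Day 14, and 5 lower and 1 higher against Day 28. For hypoxia-induced genes they were 10 lower and 1 higher against Day 14, and 8 lower and 1 higher against Day 28. NDRG1, a hypoxia-induced cytoplasmic protein, averaged 85.2 ± 4.11 CPM at Day 14, 38.4 ± 1.34 at Day 21 and 111 ± 29.3 at Day 28. EGR1 averaged 11.7 ± 0.92 CPM at Day 14, 7.21 ± 0.321 at Day 21 and 15.5 ± 1.25 at Day 28.

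Chaperones of the endoplasmic reticulum, which fold secreted proteins and are induced when unfolded protein builds up there, had the highest median of the 43 lists in the contrast with Day 14. Against the monolayer 13 of 22 were higher at Day 21 and 6 lower. Relative to the monolayer, the median log2 level of the list was -0.79 on Day 3, -0.97 on Day 7 and -0.70 on Day 10. It was -0.69 on Day 14, 0.44 on Day 21 and 0.37 on Day 28. Against Day 14 alone 18 of 22 were higher and 0 lower, with a median of 1.15. Against Day 28 alone 2 were higher and 4 lower, with a median of 0.074, beside 0.0036 and 0.011 for all genes tested against Day 14 and Day 28.

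Members of the list differed in their levels relative to the monolayer and to Day 14. CRELD2, a disulfide isomerase-like protein, was at 9.74, 11.6 and 8.36 CPM in the monolayer, 14.9, 14.9 and 14.1 CPM at Day 14, 84.9, 79.6 and 77 CPM at Day 21 and 80.4, 58.1 and 80.8 CPM at Day 28. Its Day 21 libraries were above all monolayer and all Day 14 libraries, with changes of 3.02 ± 0.13 and 2.46 ± 0.12, while its difference from Day 28, 0.14 ± 0.11, was not called. SDF2L1 and MANF, which act with the chaperone BiP, changed by 2.37 ± 0.13 and 2.32 ± 0.12 against Day 14 and by 1.66 ± 0.13 and 0.73 ± 0.12 against the monolayer. HSPA5, which encodes BiP, was at 1134, 1215 and 1095 CPM in the monolayer, 394, 412 and 431 CPM at Day 14 and 873, 828 and 1024 CPM at Day 21. Its Day 21 libraries were above all Day 14 libraries and below all monolayer libraries (-0.34 ± 0.071 against the monolayer). CALR, the glycoprotein chaperone calreticulin, changed by 0.94 ± 0.064 against the monolayer and 1.61 ± 0.065 against Day 14. ERN1, the stress sensor IRE1, and DNAJB9, a co-chaperone of BiP, changed by -2.67 ± 0.32 and -1.81 ± 0.091 against the monolayer. ERN1 showed no step up from Day 14. It was at 4.25, 4.68 and 6.07 CPM at Day 14, 3.39, 3.63 and 3.96 CPM at Day 21 and 6.99, 7.05 and 9.51 CPM at Day 28, a change of -0.45 ± 0.33 against Day 14, which was not called, and of -1.10 ± 0.32 against Day 28 (edgeR adjusted p = 0.0166).

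These promoters are shown because the known element of the response, CCAAT and CCACG with 9 bases between them, is rare and is found in several members of the list. The stretches are upstream of the RefSeq start in GRCh38.p14, 5′ to 3′ on the strand of the gene, with the outer blocks of the element in capitals. CRELD2 (chr22:49918524-49918602, plus strand) and CALR (chr19:12938359-12938432, plus strand) hold it as its reverse complement, and HSPA5 (chr9:125241361-125241439, minus strand) holds it as written.
CRELD2: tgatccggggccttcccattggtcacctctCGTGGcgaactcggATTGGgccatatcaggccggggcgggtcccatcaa
HSPA5: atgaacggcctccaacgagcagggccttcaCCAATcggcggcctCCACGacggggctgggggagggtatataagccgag
CALR: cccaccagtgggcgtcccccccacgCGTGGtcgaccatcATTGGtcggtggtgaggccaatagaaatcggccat
On either strand the element was in the windows of 6 of 21 chaperone genes (HSPA5, HSP90B1, CALR, CANX, CRELD2 and XBP1) and in 22 of all 27305 windows, 0.0806%. It was looked for after the values of these genes had been seen. Its holders were not alike against the monolayer, since CANX was not called (0.024), XBP1 was lower (-0.48 ± 0.09) and HSP90B1 higher (0.45 ± 0.069).

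**Figure D5:**
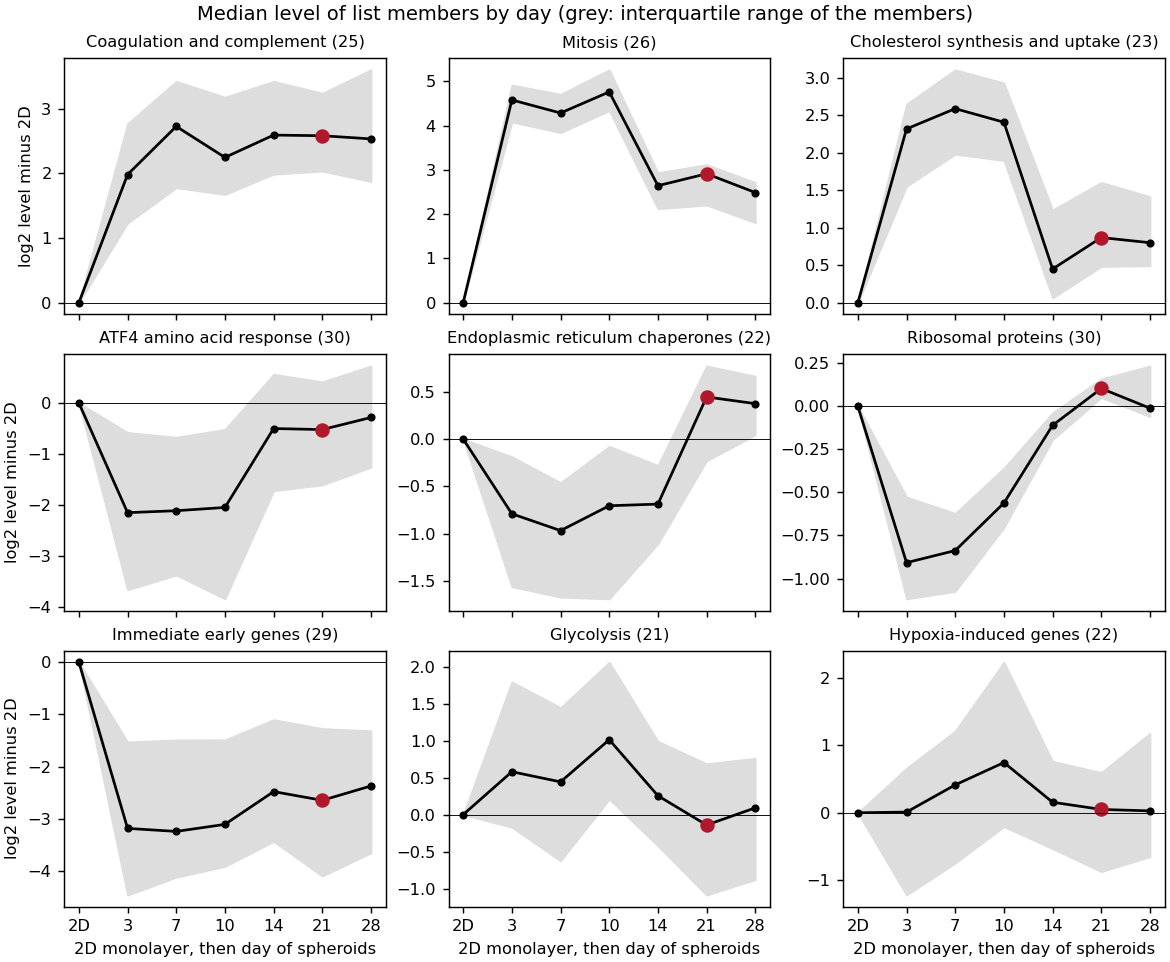
Median log2 level of the tested members of 9 gene lists relative to the 2D monolayer (black line) with the interquartile range of the members (grey), in the monolayer and on each sampled spheroid day, equally spaced, with Day 21 in red. The chaperones of the endoplasmic reticulum step up between Days 14 and 21, and mitosis and cholesterol genes sit lower from Day 14 on than at Days 3 to 10.

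Set against Day 3, the first sampled spheroids, Day 21 had 3238 genes higher (26.2%) and 3377 lower (27.4%), of which 857 (6.94%) and 938 (7.6%) changed by at least 2-fold. Mitosis genes were lower than at Day 3 although they were above the monolayer: 0 of 26 mitosis genes were higher and 26 lower, with a median of -1.79, and 27 of 28 DNA replication genes were lower. The median of all genes tested was -0.0075. MKI67 averaged 3.31 ± 1.31 CPM in the monolayer, 159 ± 5.15 at Day 3 and 30.3 ± 5.83 at Day 21. Cholesterol genes were lower in 21 of 23 and higher in 0 (-1.15), fatty acid synthesis genes lower in 17 of 23 and glycolysis genes lower in 16 of 21. The ATF4 list was higher in 28 of 30 and lower in 0 (1.06), chaperones of the endoplasmic reticulum higher in 20 of 22 and lower in 0 (1.32), and ribosomal proteins higher in 28 of 30 and lower in 0 (0.98). Coagulation and complement genes were higher in 19 of 25 and lower in 3.

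The largest rises over Day 3 were those of SLC17A2, RBP2, MAT2A, HAL and URB2, and the largest falls those of LCN15, ID3, S100A4, ID1 and S100A3. SLC17A2, a sodium-phosphate carrier of the liver, was at 184, 180.2 and 201 CPM at Day 21, against 10.5, 10.4 and 8.75 CPM at Day 3, a change of 4.24 ± 0.10. MAT2A, the methionine adenosyltransferase of tissues other than liver, rose by 3.40 ± 0.073, HAL, which starts histidine breakdown, by 3.40 ± 0.19, and RBP2, a retinol carrier, by 3.61 ± 0.22. LCN15, a lipocalin, was at 43.1, 12.4 and 9.84 CPM at Day 21, against 563, 556 and 585 CPM at Day 3, with Day 21 replicate 1 well above the other two spheroid libraries. Its change was -4.70 ± 0.47, or -5.64 without that library. ID3 and ID1, inhibitors of differentiation that BMP signals induce, changed by -3.47 ± 0.27 and -3.08 ± 0.20, the calcium-binding proteins S100A4 and S100A3 by -3.40 ± 0.26 and -3.01 ± 0.23, and URB2, a ribosome biogenesis factor, by 3.16 ± 0.62.

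Within Day 21 few genes differed widely between libraries. Among 7073 genes averaging 10 CPM or more over the 6 libraries, 29 differed by 2-fold or more between the highest and the lowest Day 21 library, against 12 between monolayer libraries. On the other spheroid days the count ran from 25 at Day 7 to 47 at Day 28, so Day 21 lay within their range. In 18 of those 29 genes the highest library was replicate 1, in 5 replicate 2 and in 6 replicate 3. AREG, KRT80 and LCN15 are among the 29. Some of the 29 reached the mean of 10 CPM only through the monolayer. EREG was at 0.143, 0.06 and 0 CPM at Day 21 and AQP3 at 0.689, 0.09 and 0.16 CPM. At such levels a 2-fold ratio can come from a few counts, so the numbers of genes per group do not compare spread at like levels. The same limit holds for the tally of highest libraries.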

How the data were processed

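TempO-Seq counts for 19683 gene symbols in 21 libraries (7 groups of 3) were analysed as deposited. The authors' values are raw counts per gene, per the table's header and the values, with whole numbers in every column; the genome build in the submitters' processing notes is GRCh38.p13, and those notes list DESeq2 1.38.0, STAR 2.7.10b, fastp 0.23.2 and bcl2fastq 2.20.422 without roles. No source used here says how probes of 1 gene were combined. Libraries held 18760232 to 43443262 counts.

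Genes passing edgeR's filterByExpr (minimum count 10) were kept; the 7338 removed, 3403 of them at 0 in every library, held 0.0108% of counts. All 21 libraries entered 1 fit in edgeR 4.0.16 (R 4.3.3, limma 3.58.1) with TMM scaling and the robust quasi-likelihood test, which left 14 residual degrees of freedom and a biological coefficient of variation of 9.62%. Contrasts were Day 21 against the 2D monolayer, against the mean of Days 14 and 28 and against Day 3; the contrasts with Day 14 and Day 28 alone were added after seeing the data. P-values were adjusted by Benjamini-Hochberg over the 12345 genes tested, with calls under 0.05. CPM are counts over TMM-scaled library sizes. On simulated counts with few genes changed, equally up and down, median estimates lay close to the changes put in, though not every changed gene was called. In the data most genes were called, so that simulation cannot test the scaling.

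Named were the 10 largest rises and falls (5 in the other contrasts) of called genes averaging 10 CPM or more whose groups did not overlap, the leading members of each list and 12 fixed genes; other genes were picked after their values were seen, and some genes the rule names are not reported here. Members and lists were chosen with earlier results of these data known. Gene positions are from GENCODE 29 by symbol, promoters and motifs from RefSeq (GRCh38.p14). The same-numbered libraries of Day 21 and the monolayer were checked for pairing. Alternatives were other scalings, no filter, DESeq2 1.42.0, the libraries of the contrast alone, a replicate block, a 2-fold threshold and each library left out.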

Additional observations from a re-analysis of the deposited data

Results flagged for a closer look

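For 10 of the 154 named genes the change against the 2D monolayer ran in opposite directions at Day 21 and at Day 3. Both changes and the difference between the days passed the threshold of edgeR's quasi-likelihood test. The share of such genes among all genes tested was not computed, so the count cannot be called high or low. SLC17A2, RBP2, HAL, ID3 and S100A4 were named for their difference between Day 21 and Day 3, so the size of that difference is a description. GPCPD1 was named for its difference from the mean of Days 14 and 28. SLC17A2, a transporter of the phosphate transporter family, was at 1.73 at Day 21 and -2.52 at Day 3 on the log2 scale against the monolayer, a difference of 4.25 (adjusted p = 3.56e-25). RBP2, a retinol binding protein, was at 1.00 at Day 21 and -2.61 at Day 3, a difference of 3.61 (adjusted p = 8.27e-11). HAL, which breaks down histidine, was at 1.43 at Day 21 and -1.97 at Day 3, a difference of 3.40 (adjusted p = 3.02e-11).

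ID3, an inhibitor of helix-loop-helix factors, was at -0.79 at Day 21 and 2.67 at Day 3, a difference of -3.47 (adjusted p = 1.15e-08). S100A4, a calcium-binding protein, was at -1.87 at Day 21 and 1.53 at Day 3, a difference of -3.40 (adjusted p = 2.57e-08). GPCPD1, the glycerophosphocholine phosphodiesterase, was at -0.70 at Day 21 and 1.04 at Day 3, a difference of -1.74 (adjusted p = 1.73e-13). ACTB, beta-actin, was at -0.72 at Day 21 and 0.63 at Day 3, a difference of -1.35 (adjusted p = 7.18e-16). CYP7A1, which sets the pace of bile acid production, was at 2.13 at Day 21 and -1.47 at Day 3, a difference of 3.60 (adjusted p = 3.34e-07). INHBE, the activin subunit of the liver, was at 0.72 at Day 21 and -0.76 at Day 3, a difference of 1.48 (adjusted p = 3.55e-11). RPL13, a ribosomal protein, was at 0.94 at Day 21 and -0.32 at Day 3, a difference of 1.26 (adjusted p = 4.86e-11). The contrasts share the monolayer libraries. ACTB is often used to scale other measurements, and in CYP7A1 the values rest on low counts.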

How the results depend on the processing

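Asking for at least a 2-fold change left 2878 higher and 1972 lower genes at Day 21 against the 2D monolayer, 116 and 85 against the mean of Days 14 and 28, and 857 and 938 against Day 3. Leaving out each library in turn gave 4566 to 4875 higher and 4046 to 4362 lower against the monolayer, 1306 to 1974 and 1017 to 1678 against the mean of Days 14 and 28, and 2985 to 3260 and 2915 to 3087 against Day 3. With the replicate number as a block the calls were 4858 higher and 4350 lower against the monolayer, and 1993 and 1497 against the mean of Days 14 and 28. Deviations of same-numbered Day 21 and monolayer libraries from their group means correlated at 0.0189, -5.27e-05 and 0.00112, so no shared deviation was seen. For Day 21 and Day 28 the values were 0.0552, -0.00927 and 0.0991. With 3 libraries a group such values cannot show whether same-numbered libraries share an origin. Scaling by library size alone moved the share of higher calls to 42.5%, against 48.9%, in the contrast with Day 3. DESeq2 called 4831 higher and 4405 lower against the monolayer, and the 6 libraries of that contrast alone gave 4515 and 4384. Of the genes the naming rule gave, none changed direction under an alternative that gave it a value, and STAB1 alone lost its call. In the 6 libraries alone 5 of the 134 named against the monolayer (BHMT, PDGFRB, PNPLA3, STAB1 and VWF) had too few counts to be tested, and genes picked outside the rule were not part of these comparisons. Depth limits genes with few counts in 1 group, such as EREG, BMP6 and CYP3A4.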
